A study of Mus musculus with 4 samples.

Results

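The genes that flank *Kdm3b* on mouse chromosome 18 were examined in the cerebellum of *Kdm3b*+/- mice. The flanking genes were set by a rule of position, chosen with earlier results of these data known. They are all gene identifiers of the deposited tables that start between 29.8 and 36.5 Mb of chromosome 18, except *Kdm3b* and its neighbour *Egr1*. *Egr1*, an activity-induced transcription factor gene, was lower in both *Kdm3b*+/- mice than in both WT mice. The rule gave 72 genes of the 24532 in each table, 44 on the side towards the chromosome start and 28 on the other side. Of these, 62 encode proteins, 6 are long noncoding RNAs, 2 are microRNAs, 1 is a small nucleolar RNA and 1 is a transcribed pseudogene.

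The libraries came from adult male mice, 2 WT and 2 *Kdm3b*+/- littermates, with 1 library per mouse, and the labels name no treatment. The labels name the tissue as cerebellum, and the study's methods name it as granule-cell-enriched (GCE) tissue cut by hand from slices of the vermis. *Kdm3b* encodes an enzyme that removes 1 or 2 methyl groups from lysine 9 of histone H3, and the *Kdm3b*+/- mice carry 1 allele with a gene-trap vector in an intron, from a single embryonic stem cell line, in every cell of the body. The line was backcrossed to C57BL/6N and then crossed to C57BL/6J for a few generations.

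A gene trap interrupts the gene in which it sits and leaves the coding sequence of the neighbouring genes in place. Neighbouring genes can share enhancers, and chromosome segments are inherited together, so that in a backcrossed line the DNA around a modified gene tends to come from the stem cells along with the modification. For the genes examined here, an effect of the trapped allele, an effect of reduced *Kdm3b* dosage and an effect of the inherited segment cannot be told apart by the design. In humans the counterpart of this neighbourhood, with *KDM3B*, *EGR1*, *ETF1*, *HSPA9* and *CTNNA1*, is known from chromosome deletions in myeloid leukaemia.

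Expression is given as TPM, a length-scaled relative abundance, which divides out gene length and fixes each library's sum at 1000000. TPM carries no depth, and the depth of the libraries, taken as coverage divided by FPKM, was between 4.92 and 6.69 gigabases aligned. All 13 granule cell markers had a TPM above 0 in all 4 libraries, and *Gabra6*, a GABA-A receptor subunit of granule cells, had a TPM between 984 and 1200. The summed TPM of granule cell markers was 5852 and 6957 in WT and 6099 and 6654 in *Kdm3b*+/- mice. Markers of other cells were present too. The 14 Purkinje cell markers had a summed TPM of 2286 and 1088 in the WT mice against 1351 and 1203 in the *Kdm3b*+/- mice. Their mean log2 value was lower in *Kdm3b*+/- mice for 13 of 14, but the lowest sum was that of WT mouse 2. For 5 of the 14 (35.7%) both *Kdm3b*+/- mice lay below both WT mice, compared with 32.0% of all tested genes. The 8 markers of meningeal fibroblasts had a summed TPM of 105 and 103 against 51.2 and 53.0, with a lower mean for 5 of 6 tested. Of these, *Prelp* and *Fmod* were called lower, with an adjusted p under 0.05 from limma. *Prelp* had 40.4 and 44.0 against 15.3 and 14.2 TPM, and *Fmod* had 13.7 and 15.7 against 2.53 and 2.76 TPM. Both *Kdm3b*+/- mice were higher for *Lum* (1.29 and 0.984 against 3.40 and 2.86) and the untested *Col3a1* (0.448 and 0.563 against 0.863 and 1.05). The lower sum was thus not shared by all 8 markers. None of these 22 markers was at 0 in any library. For 5 of 6 tested meningeal markers (83.3%) both *Kdm3b*+/- mice lay below both WT mice. The share was 58.3% for astrocyte and Bergmann glia markers (7 of 12) and 66.7% for tested interneuron markers (4 of 6). It was 7.69% for granule cell (1 of 13), 16.7% for oligodendrocyte (2 of 12) and 20% for endothelial and pericyte markers (2 of 10). Both *Kdm3b*+/- mice lay above both WT mice for 5 of 10 microglia markers (50%), compared with 19.2% of all tested genes. The part of these differences in the values of the flanking genes was not tested, and in such bulk tissue fewer cells of a type and less RNA per cell cannot be told apart.

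The flanking region ran from abundant genes to genes listed at 0. A mean TPM of at least 100 was found for 13 genes, of 10 to 100 for 26, of 1 to 10 for 18 and of under 1 for 10, and 5 genes (*Proc*, *4930455D15Rik*, *Mir6361*, *Wnt8a* and *Gfra3*) were listed at 0 in all 4 libraries. The 57 genes whose TPM averaged 1 or more were tested, and their median level of 32.3 TPM compared with 19.0 TPM over all 13652 tested genes.

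**Figure D1:**
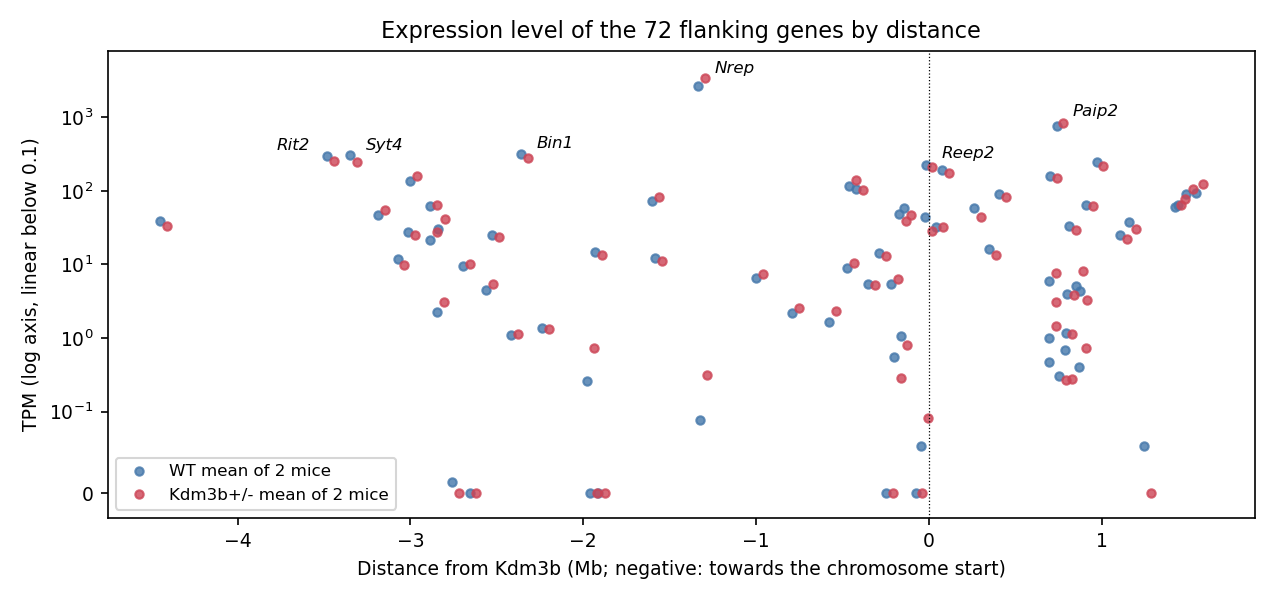
TPM (log axis, linear below 0.1) of the 72 flanking genes against the distance from *Kdm3b* in Mb, as the mean of 2 WT mice (blue) and of 2 *Kdm3b*+/- mice (red), with the points of a gene set slightly apart sideways. *Nrep* stands highest, and the genes listed at 0 lie on the bottom line.

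*Nrep*, which encodes a small neuronal protein linked to nerve regeneration, was the most abundant flanking gene and the 13th of all genes by mean TPM. It measured 2643 and 2633 TPM in WT and 3757 and 3104 TPM in *Kdm3b*+/- mice. Both *Kdm3b*+/- mice lay above both WT mice. *Nrep* alone made up between 38.8% and 48.0% of the summed TPM of the flanking genes, which was 6764 and 6781 in WT and 7826 and 7131 in *Kdm3b*+/- mice. Without *Nrep* the sum was 4121 and 4148 in WT and 4069 and 4026 in *Kdm3b*+/- mice, so that the groups then stood in the opposite order.

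The next most abundant flanking genes were *Paip2*, a repressor of translation that binds the poly(A)-binding protein, *Bin1*, which bends membranes, *Syt4*, a synaptotagmin of secretory vesicles, and *Rit2*, a small GTPase of neurons. *Paip2* measured 811 and 714 TPM in WT and 874 and 794 TPM in *Kdm3b*+/- mice. *Bin1* had 298 and 344 against 257 and 293. The groups overlapped for *Paip2* and not for *Bin1*, and neither gene passed the test (log2 fold change 0.13, adjusted p = 0.61, and −0.22, adjusted p = 0.421, from limma). *Syt4* had 273 and 340 against 287 and 206, and *Rit2* had 328 and 265 against 227 and 278, so that the groups overlapped in both. The ranking of *Bin1*, *Syt4* and *Rit2* by TPM differed between mice, with *Rit2* the highest of them in WT mouse 1 and *Bin1* in WT mouse 2.

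*Kdm3b* and *Egr1* were the anchors of the region. *Kdm3b* (chromosome 18, 34777008 to 34839370) measured 9.10 and 11.0 TPM in WT and 8.30 and 7.90 TPM in *Kdm3b*+/- mice (log2 fold change −0.27, 95% interval −0.65 to 0.10). The TPM covers all exons, those before the gene trap included. *Egr1*, which lies 21.8 kb past the end of *Kdm3b*, measured 78.8 and 124 TPM against 45.0 and 57.1 TPM (log2 fold change −0.95, 95% interval −1.44 to −0.46, adjusted p = 0.114 from limma). Without *Kdm3b*+/- mouse 2 *Egr1* passed the test (adjusted p = 0.0134 from limma), as it did with the replicate block (adjusted p = 0.00492), but not with the block and the correction for length and GC content together (−0.71, adjusted p = 0.0746). Without WT mouse 2 it was −0.63 (adjusted p = 0.264).

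*Reep2*, which encodes a membrane-shaping protein of the endoplasmic reticulum, begins 1.22 kb past the end of *Kdm3b* (34840589 to 34847463). It measured 225 and 225 TPM in WT and 200 and 221 TPM in *Kdm3b*+/- mice. Both *Kdm3b*+/- values were lower, but by little, and they gave a log2 fold change of −0.10 ± 0.13 (SE) with an adjusted p = 0.727 from limma. Its 95% interval ran from −0.38 to 0.19, a range that holds small changes in either direction.

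*Fam53c* ends 3.25 kb before the start of *Kdm3b* (34758906 to 34773760). The WT mice measured 36.7 and 50.4 TPM (43.6 ± 9.69, mean ± SD, n = 2). The *Kdm3b*+/- mice measured 25.1 and 31.5 TPM (28.3 ± 4.55, n = 2). Both *Kdm3b*+/- mice lay below both WT mice, and the WT mice differed from each other by more than the gap between the groups. The log2 fold change of −0.60 was the lowest of the 57 tested flanking genes (standard error 0.19, 95% interval −1.02 to −0.17), with an unadjusted p of 0.0114 and an adjusted p of 0.191 from limma. With each library left out in turn it ran from −0.82 to −0.37, and it was closest to 0 without WT mouse 2. Corrected for transcript length and GC content, it was −0.39.

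**Figure D2:**
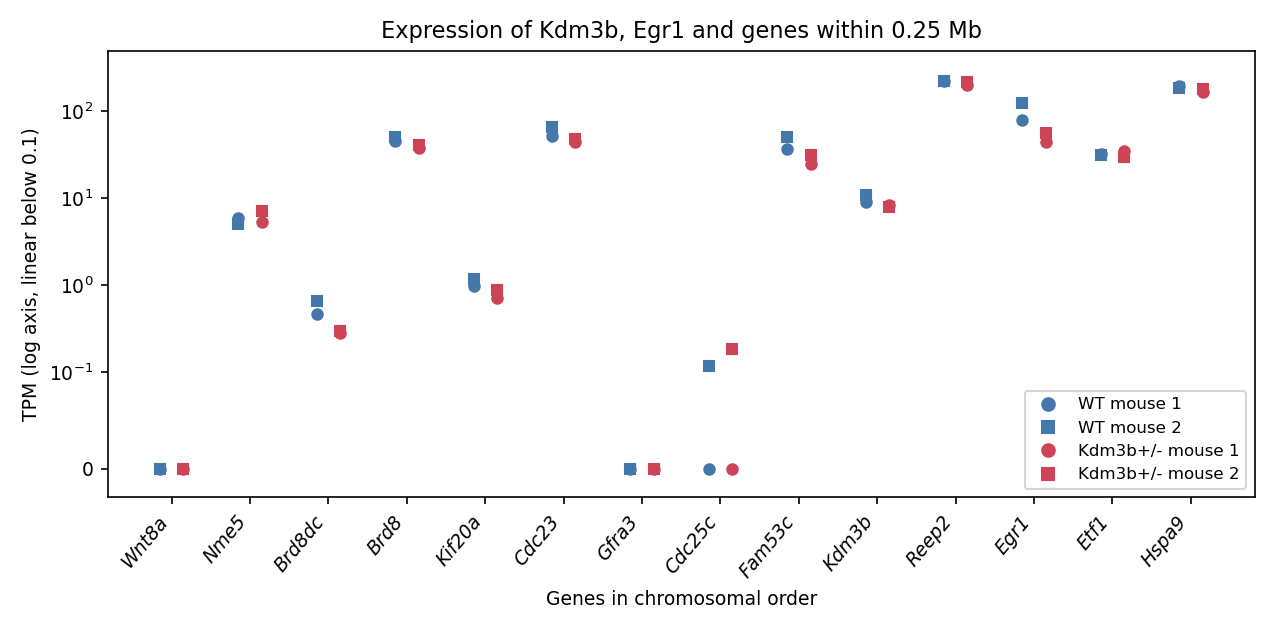
TPM (log axis, linear below 0.1) of *Kdm3b*, *Egr1* and the 12 flanking genes within 0.25 Mb, in chromosomal order, with 1 point per mouse (blue, WT; red, *Kdm3b*+/-; circles, mouse 1; squares, mouse 2). The red points of *Fam53c*, *Brd8*, *Cdc23* and *Egr1* lie below the blue ones, while those of *Etf1* and *Nme5* overlap with them.

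Within 0.25 Mb of *Kdm3b* lay 12 flanking genes, of which 7 were tested. *Etf1*, the translation release factor, measured 32.7 and 31.4 TPM in WT and 34.8 and 30.1 TPM in *Kdm3b*+/- mice (log2 fold change 0.01, 95% interval −0.32 to 0.35). *Hspa9*, the mitochondrial HSP70 chaperone, measured 196 and 186 TPM against 169 and 180 TPM (log2 fold change −0.13, 95% interval −0.41 to 0.15). The groups overlapped for *Etf1*, and for *Hspa9* both *Kdm3b*+/- mice were lower while the interval held 0.

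On the other side, *Brd8*, a bromodomain subunit of the TIP60 histone acetyltransferase complex, measured 45.4 and 50.3 TPM in WT and 37.7 and 41.3 TPM in *Kdm3b*+/- mice (log2 fold change −0.27, adjusted p = 0.364 from limma). *Cdc23*, a subunit of the anaphase-promoting complex, measured 52.5 and 65.4 TPM against 44.3 and 48.2 TPM (log2 fold change −0.34, adjusted p = 0.308). Both genes were lower in both *Kdm3b*+/- mice, and neither passed the test. *Nme5*, a nucleoside diphosphate kinase relative of motile cilia, had 5.86 and 5.01 against 5.34 and 7.13, and the groups overlapped.

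The other 5 genes within 0.25 Mb were below the TPM minimum. *Kif20a*, a kinesin of cell division, measured 0.974 and 1.18 TPM in WT and 0.721 and 0.877 TPM in *Kdm3b*+/- mice. It shares 1271 exon bases in the GENCODE annotation with the more abundant *Cdc23* on the opposite strand, so its values may hold reads of *Cdc23*. *Brd8dc* had 0.460 and 0.657 against 0.283 and 0.294. *Cdc25c*, a phosphatase of entry into mitosis, was listed at 0 in 1 mouse of each group, with 0.117 and 0.183 in the others. *Wnt8a*, a Wnt ligand, and *Gfra3*, a receptor subunit for the neurotrophic factor artemin, were listed at 0 throughout.

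Taken by distance, the 7 tested genes within 0.25 Mb had a median log2 fold change of −0.13, compared with −0.07 over all tested genes. Of them 5 had a lower mean in *Kdm3b*+/- mice, and for the same 5 the groups did not overlap, where both *Kdm3b*+/- mice lay below both WT mice for 32.0% of all tested genes. The median was −0.04 in the 23 tested genes from 0.25 to 1 Mb, 0.12 in the 10 tested genes from 1 to 2 Mb and 0.03 in the 17 tested genes beyond 2 Mb. Across the 57 genes, which share the same 4 libraries, distance had a Spearman correlation of 0.14 with the log2 fold change and of 0.03 with its size. The median of the nearest bin rests on 7 genes. It stayed below 0 under every alternative that was run, between −0.18 and −0.06. The median of all tested genes ran from −0.10 without WT mouse 1 to 0.005 with quantile normalization, and was below 0 in every other alternative. The medians of the 0.25 to 1 Mb bin and of the bin beyond 2 Mb took both signs. They were 0.12 and −0.03 without *Kdm3b*+/- mouse 1, −0.12 and 0.08 without *Kdm3b*+/- mouse 2, −0.06 and −0.05 without WT mouse 1, and 0.02 and 0.06 without WT mouse 2. Without *Kdm3b*+/- mouse 1 the median of the 1 to 2 Mb bin was 0.08.

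**Figure D3:**
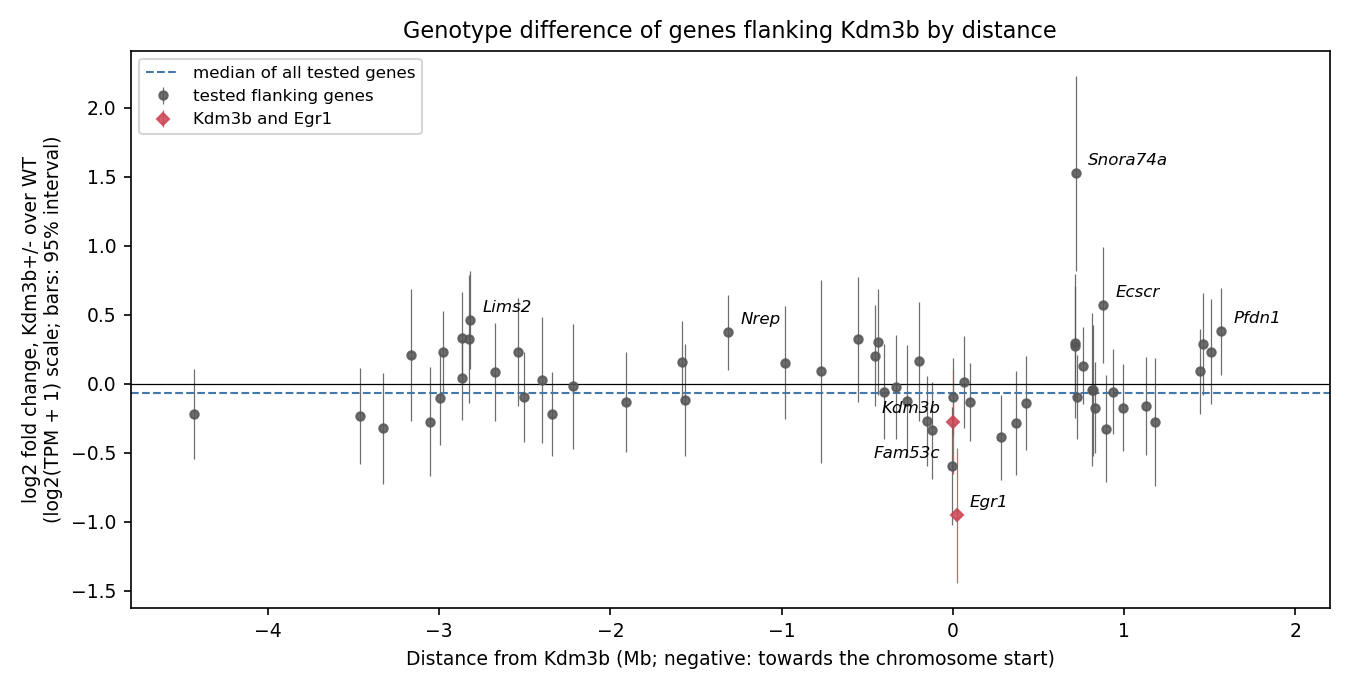
Log2 fold change (*Kdm3b*+/- over WT, on the log2(TPM + 1) scale) of the 57 tested flanking genes (grey) and of *Kdm3b* and *Egr1* (red diamonds) against the distance from *Kdm3b* in Mb, with 95% intervals as bars and the median of all tested genes as a dashed line. The points scatter around the dashed line at all distances, with *Snora74a* highest and *Fam53c* lowest among the flanking genes.

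The whole set was then compared between the genotypes by limma on log2(TPM + 1), fitted over all 13652 genes, and a gene was called where its adjusted p was under 0.05 and its fold change exceeded 1.2. None of the 57 tested flanking genes was called, where 0.461% of all tested genes were (0.117% higher and 0.344% lower). Of them, 8 (14.0%) had an unadjusted p under 0.05, 6 higher and 2 lower in *Kdm3b*+/- mice, compared with 17.0% of all tested genes (5.47% higher and 11.5% lower). The share with a small p was thus near the background. Among the 6 higher genes, *Snora74a* reached the TPM minimum only through the *Kdm3b*+/- mice. Without *Kdm3b*+/- mouse 2, *Nrep* and *Snora74a* were called higher, and without *Kdm3b*+/- mouse 1 *Snora74a* was, in fits that take the lone mouse of a group to vary like the others. In each of these fits 0.308% of all tested genes were called higher. With the replicate number as a block, *Snora74a* was called higher and *Fam53c* lower, where 1.27% and 3.13% of all tested genes were, although the numbers are not known to pair the mice. The higher and lower counts at an unadjusted p under 0.05 were 2 and 1 without *Kdm3b*+/- mouse 1 (2.94% and 4.41% of all tested genes), 3 and 1 without *Kdm3b*+/- mouse 2 (3.8% and 10.3%), 6 and 4 without WT mouse 1 (7.98% and 17.5%) and 2 and 1 without WT mouse 2 (4.44% and 7.5%).

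The groups did not overlap for 30 of the 57 genes (52.6%), compared with 51.3% of all tested genes. Both *Kdm3b*+/- mice lay above both WT mice for 17 of them and below for 13, where 19.2% and 32.0% of all tested genes did so. In *Kdm3b*+/- mice 27 genes (47.4%) had a higher and 30 a lower mean, while 39.6% of all tested genes had a higher and 60.4% a lower mean. With quantile normalization, these shares were 57.9% of the flanking genes (33 of 57) and 50.8% of all tested genes. The median log2 fold change of the flanking genes was −0.02, and it was 0.02 and 0.03 with median-ratio scaling and quantile normalization, which brought the median of all tested genes from −0.07 to within 0.01 of 0. It was −0.06 without WT mouse 1, −0.04 without *Kdm3b*+/- mouse 2, 0.02 without WT mouse 2 and 0.00 without *Kdm3b*+/- mouse 1. The 325 other tested genes of chromosome 18 had a median of −0.09, with 2 called and 14.2% at an unadjusted p under 0.05. With a library left out, the flanking genes lower without overlap numbered 25 without *Kdm3b*+/- mouse 2 (48.2% of all tested genes), 24 without WT mouse 1 (51.8%), 18 without *Kdm3b*+/- mouse 1 (40.4%) and 17 without WT mouse 2 (42.6%). Those higher numbered 23 (27.6%), 23 (30.7%), 23 (29.4%) and 21 (32.0%) in the same order.

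The 95% intervals were set against fixed sizes of change. On the log2(TPM + 1) scale, the interval lay within a 2-fold change in both directions for 55 of the 57 genes (96.5%). It lay within a 1.5-fold change for 30 of them (52.6%). The shares of all tested genes were 93.3% and 53.0%. Because this scale understates changes of low genes, the intervals of such genes do not bound the fold change of their TPM. The exceptions at 2-fold on this scale were *Snora74a* and *Fam53c*. With 2 mice against 2, an exact permutation test (two-sided) cannot go below p = 0.333.

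**Figure D4:**
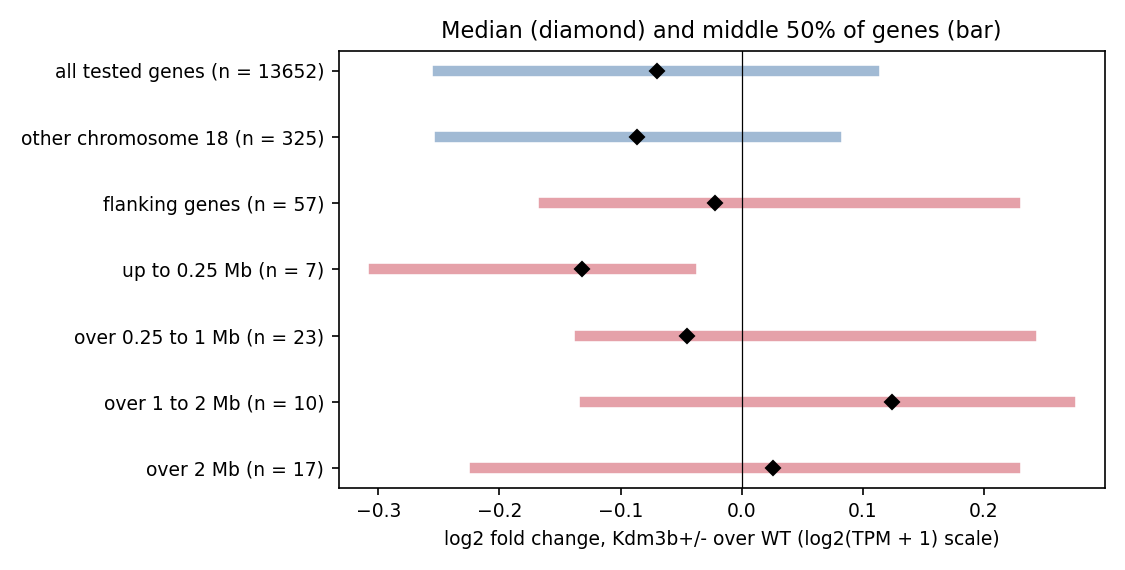
Median (diamond) and middle 50% (bar) of the log2 fold changes (*Kdm3b*+/- over WT, log2(TPM + 1) scale) of all tested genes, of the other tested genes of chromosome 18, of the flanking genes, and of the flanking genes by distance from *Kdm3b*, with the number of genes beside each name. The bars of the flanking genes overlap with that of all tested genes, and the bin nearest to *Kdm3b*, with 7 genes, has the lowest median of −0.13.

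The 8 genes with an unadjusted p under 0.05 were *Fam53c* and *Ctnna1*, with lower values in *Kdm3b*+/- mice, and *Nrep*, *Lims2*, *Sft2d3*, *Pfdn1*, *Ecscr* and *Snora74a*, with higher values. *Ctnna1* (35118912 to 35254775) encodes alpha-catenin, which ties cadherins to actin. It measured 55.9 and 59.3 TPM in WT and 44.6 and 42.9 TPM in *Kdm3b*+/- mice, with close replicates in both groups. This gave a log2 fold change of −0.39 ± 0.14 (SE) with an adjusted p = 0.222 from limma, and it was −0.24 after correction for transcript length and GC content.

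*Lrrtm2*, which encodes a postsynaptic adhesion protein, lies within *Ctnna1* on the opposite strand. It measured 15.2 and 17.5 TPM in WT and 14.4 and 12.1 TPM in *Kdm3b*+/- mice (log2 fold change −0.28, adjusted p = 0.404 from limma). This pair shares 95 exon bases in the GENCODE annotation. The sources used here do not state whether strand was kept in the libraries, so reads of overlapping genes on opposite strands may not have been separated.

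*Nrep* (33437019 to 33464029) had close WT replicates and *Kdm3b*+/- replicates further apart, at 2638 ± 7.44 TPM and 3431 ± 462 TPM (mean ± SD, 2 mice each). This gave a log2 fold change of 0.37 (standard error 0.12, 95% interval 0.10 to 0.64, adjusted p = 0.197 from limma). It was 0.51 without *Kdm3b*+/- mouse 2 (adjusted p = 0.0244 from limma) and 0.23 without *Kdm3b*+/- mouse 1.

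*Lims2*, an adaptor of integrin adhesion sites, measured 26.8 and 33.3 TPM in WT and 42.1 and 40.9 TPM in *Kdm3b*+/- mice (log2 fold change 0.46, adjusted p = 0.213 from limma). *Gpr17*, a receptor of differentiating oligodendrocyte precursors, lies inside *Lims2* on the opposite strand and shares 188 exon bases with it. It measured 1.90 and 2.58 TPM against 2.64 and 3.47 TPM (log2 fold change 0.32, adjusted p = 0.44). For both genes the *Kdm3b*+/- mice lay above the WT mice. The 4 oligodendrocyte precursor markers, *Gpr17* among them, had a summed TPM of 6.02 and 7.13 in WT and 7.59 and 9.20 in *Kdm3b*+/- mice. None was at 0. The mean log2 value was higher for 2 of 4, *Gpr17* itself and *Bmp4* (0.841 and 0.943 against 2.36 and 2.19 TPM). It was lower for *Pdgfra* and *Cspg4* (log2 fold change −0.10 and −0.11). The part of these cells in this result was not tested.

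*Sft2d3*, of a family of Golgi transport proteins, measured 22.4 and 20.6 TPM in WT and 27.0 and 27.7 TPM in *Kdm3b*+/- mice (log2 fold change 0.33, adjusted p = 0.288 from limma). *Pfdn1*, a subunit of the prefoldin chaperone, measured 100.1 and 87.7 TPM against 129 and 115 TPM (log2 fold change 0.38, adjusted p = 0.237). In both genes the groups were apart. With correction for transcript length and GC content *Pfdn1* moved to 0.19 and *Sft2d3* to 0.43. Over the 52 tested flanking genes with a known transcript length, length had a Spearman correlation of −0.22 with the log2 fold change, and over the 12904 such genes of all tested it was −0.23, so the tendency of shorter transcripts to be higher in *Kdm3b*+/- mice was similar in the flanking genes and elsewhere.

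*Ecscr*, a surface protein of endothelial cells, measured 5.50 and 4.71 TPM in WT and 7.02 and 9.15 TPM in *Kdm3b*+/- mice (log2 fold change 0.57, adjusted p = 0.202 from limma). Corrected for transcript length and GC content, it was 0.38. The 10 markers of endothelial cells and pericytes had a summed TPM of 452 and 420 against 440 and 472, with a higher mean log2 value in *Kdm3b*+/- mice for 6 of 10 and none at 0. Their log2 fold changes ran from −0.68 to 0.41. The part of these cells in the values of *Ecscr* was not tested.

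*Snora74a* had the highest log2 fold change of the flanking genes, 1.52 (standard error 0.31, 95% interval 0.82 to 2.23, unadjusted p = 0.000853, adjusted p = 0.0997 from limma). It is a small nucleolar RNA of the class that guides pseudouridylation, 198 bases long, inside the host gene *Snhg4*. It measured 0.956 and 0 TPM in WT and 3.66 and 2.47 TPM in *Kdm3b*+/- mice. With a mean of 0.478 TPM in WT and 3.06 TPM in *Kdm3b*+/- mice, it reached the TPM minimum only through the group where it was higher. The *Kdm3b*+/- mice were higher, but the values rest on few reads, with 420 and 0 aligned bases in WT mice against 1918 and 1493 in *Kdm3b*+/- mice. Its host gene *Snhg4*, a noncoding RNA, measured 6.42 and 5.64 TPM against 6.66 and 8.66 (log2 fold change 0.29, adjusted p = 0.434), and the microRNA *Mir1949* in the same host had 0.882 and 1.12 against 1.02 and 1.90. Reads of *Snhg4* and of the RNAs inside it cannot be assigned with certainty to 1 of them. *Snora74a* was called without *Kdm3b*+/- mouse 1 (1.31, adjusted p = 0.0482) and without *Kdm3b*+/- mouse 2 (1.74, adjusted p = 0.00233), and it was not called without WT mouse 2 (1.04, adjusted p = 0.218) or without WT mouse 1 (2.01, adjusted p = 0.0694). Its log2 fold change was 3.26 with a pseudocount of 0.1 (adjusted p = 0.169) and 1.0 with FPKM (adjusted p = 0.104), and without a filter on low TPM its adjusted p was 0.303, all from limma.

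**Figure D5:**
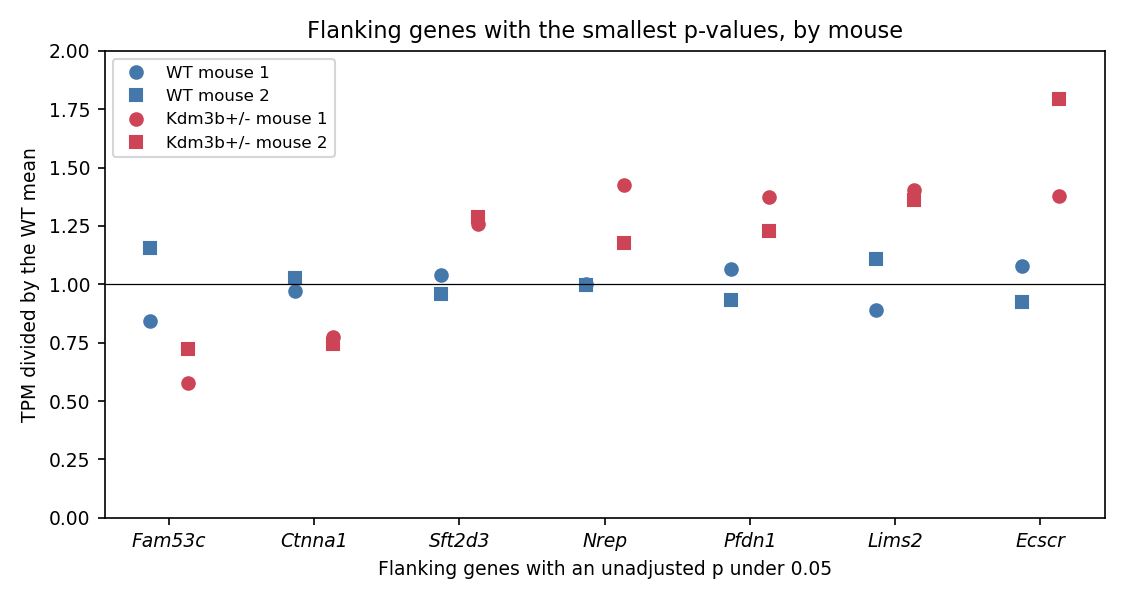
TPM of 7 flanking genes divided by the mean of the 2 WT mice, with 1 point per mouse (blue, WT; red, *Kdm3b*+/-; circles, mouse 1; squares, mouse 2) and a line at 1, for the genes with an unadjusted p under 0.05 other than *Snora74a*, which is listed at 0 in a WT mouse. The red points lie below the blue ones for *Fam53c* and *Ctnna1* and above them for *Sft2d3*, *Nrep*, *Pfdn1*, *Lims2* and *Ecscr*, and none of these genes passed the adjusted test.

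By their roles, the flanking genes were divided into 6 lists, and 18 genes fell in no list. All 7 genes of transcription and chromatin were tested, with a higher mean in *Kdm3b*+/- mice for 3 and a lower mean for 4, a median log2 fold change of −0.10, and no unadjusted p under 0.05. The most abundant of them was *Cxxc5*, a zinc finger protein that binds unmethylated CpG, with a TPM of 222 and 270 in WT and 208 and 226 in *Kdm3b*+/- mice, which overlapped. *Polr2d*, a subunit of RNA polymerase II, measured 136 and 138 TPM against 173 and 149 TPM (log2 fold change 0.23, and 0.00 after correction for transcript length and GC content). *Pura*, a nucleic acid binding protein of neurons, had 60.1 and 60.3 against 61.4 and 67.1.

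The 7 genes of RNA processing and translation had a median log2 fold change of 0.04, with a higher mean for 5 and a lower mean for 2, and none had an unadjusted p under 0.05. *Matr3*, an RNA-binding protein of the nuclear matrix, measured 148 and 174 TPM in WT and 152 and 148 TPM in *Kdm3b*+/- mice. *Srp19*, of the signal recognition particle, had 134 and 96.0 against 143 and 137, and its log2 fold change of 0.30 was 0.06 without WT mouse 2. The WT mice differed from each other here by more than the *Kdm3b*+/- mice did.

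Of the 8 genes of protein folding, ubiquitin and cell division, 6 were tested. In *Kdm3b*+/- mice 5 of the 6 had a lower mean, with a median of −0.14, where 60.4% of all tested genes had a lower mean. *Sil1*, a cofactor of the chaperone BiP whose loss causes Purkinje cell degeneration in mice, measured 88.2 and 92.3 TPM in WT and 73.3 and 91.2 TPM in *Kdm3b*+/- mice. The log2 fold change of −0.14 was 0.02 without *Kdm3b*+/- mouse 1, so that its sign rested on that mouse. *Pfdn1* was the tested gene of the list with a higher mean.

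All 9 genes of membrane traffic and organelles were tested. In *Kdm3b*+/- mice 7 had a lower mean (77.8%, compared with 60.4% of all tested genes), with a median of −0.12. *Sft2d3* alone had an unadjusted p under 0.05. The list holds *Syt4*, *Bin1* and *Reep2*, described above. The groups did not overlap for 4 of its 9 genes (44.4%), compared with 51.3% of all tested genes. The share was 85.7% in the list of transcription and chromatin (6 of 7) and 28.6% in that of RNA processing and translation (2 of 7). The folding list had 66.7% (4 of 6). Of the lists below, the neuronal one had 58.3% (7 of 12) and the immune one 75% (3 of 4), each on few genes.

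Of the 15 genes of neuronal signalling, adhesion and cytoskeleton, 12 were tested, with a higher mean for 6 and a lower mean for 6 and a median of 0.03. *Nrep*, *Lims2* and *Ctnna1* had an unadjusted p under 0.05. *Camk4*, a calcium/calmodulin-dependent kinase abundant in granule cells, measured 74.9 and 71.5 TPM in WT and 81.1 and 82.5 TPM in *Kdm3b*+/- mice. The groups were apart, but by little, with a log2 fold change of 0.16 (95% interval −0.14 to 0.45, adjusted p = 0.557 from limma).

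Of the 8 genes of immune, blood and other cell types, 4 were tested, and the list was low throughout, with a summed TPM between 14.1 and 18.3. *Sting1*, an adaptor of innate DNA sensing, measured 4.40 and 4.28 TPM in WT and 3.26 and 3.25 TPM in *Kdm3b*+/- mice, with very close replicates (log2 fold change −0.33, adjusted p = 0.361 from limma). The 10 microglia markers had a summed TPM of 361 and 365 against 379 and 399, with a higher mean log2 value in *Kdm3b*+/- mice for 8 of 10 and none at 0, and their part in the values of *Sting1* was not tested. Below the TPM minimum, *Tslp*, a cytokine gene, measured 0.160 and 0.360 TPM in WT and 0.632 and 0.843 TPM in *Kdm3b*+/- mice. The groups did not overlap at these low levels. Beyond 0.25 Mb, the other 6 genes with a mean TPM above 0 and under the minimum (*Myo7b*, *Gm10549*, *Slc23a1*, *Mzb1*, *1700066B19Rik* and *4930471G03Rik*) lay between 0 and 0.808 TPM in every library.

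The region is dense, and 23 of the 72 flanking genes overlapped another gene of the region, in 13 pairs, of which 11 lie on opposite strands and 6 are nested. For 7 pairs both genes were tested, and in 6 of these the log2 fold changes had the same sign. The exception was *Bin1* with the noncoding RNA *A830052D11Rik*, whose TPM was between 0.961 and 1.31. This pair shares 256 exon bases in the GENCODE annotation. Among the 6, *Pkd2l2* and *Fam13b* share 631 such bases, and *Gm10548* and *Apc* share 0. The pairs within *Snhg4*, the pair of *Ctnna1* and *Lrrtm2*, and that of *Lims2* and *Gpr17* were among the 6, and since reads may be shared within a pair, these are not independent measurements.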

How the data were processed

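Bulk RNA-seq of 2 WT and 2 *Kdm3b*+/- mice was examined, grouped by the genotype in the sample titles. According to the methods and the submitters' processing notes, the authors trimmed low-quality bases, aligned reads with STAR and estimated abundance with StringTie. The versions, the genome build and the annotation are not given in the sources used here. The deposited TPM divides out gene length and sums to 1000000 per library, and the deposited FPKM is relative to gene length and mapped fragments. The deposited coverage gives how many reads lie over an exonic base on average. Coverage divided by FPKM gave the gigabases aligned, and 73.4% to 73.8% of entries with an FPKM over 1 lay within 1% of the ratio taken. Such depth limits counting error, while 2 mice per group limit the p-values. These rest on the spread between mice of a group, which eBayes pools in part over all tested genes. No libraries were identical.

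Symbols came from a RefSeq table of GRCm38 and matched all 72 genes, 64 of which start within 1 kb of it, and positions are printed as in the deposited tables. No flanking gene had several entries, and entries sharing an identifier were summed. Distance is the gap to *Kdm3b*. Genes whose TPM averaged 1 or more were tested on log2(TPM + 1), which understates changes of low genes, with limma 3.58.1 (eBayes with trend) in R 4.3.3, with genotype as the only term. Benjamini-Hochberg adjustment ran over 13652 genes, and the test was checked on simulated data. Overlaps of exons, transcript length and GC content came from GENCODE. Python 3.11.15, pandas 2.3.3 and Matplotlib 3.10.9 made tables and figures.

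The genes, lists and distance bins were chosen with earlier results of these data known. Named are genes within 0.25 Mb, those with an unadjusted p under 0.05, the 5 largest increases and decreases, the 5 highest TPM, examples of each role list by TPM, *Kdm3b* and *Egr1*. *Lrrtm2*, *Snhg4*, *Mir1949*, *Tslp*, *A830052D11Rik*, the other genes below the minimum and genes listed at 0 were named after their values were seen. Other marker lists are given by summed TPM, WT mice against *Kdm3b*+/- mice. The 12 astrocyte and Bergmann glia markers had 4339 and 3638 against 3247 and 2995, mostly *Aldoc*. The mean was higher for 4 of 12, of which *Aqp4* and *Fabp7* were called higher. The 12 oligodendrocyte markers had 17736 and 16263 against 15052 and 18036, mostly *Mbp*. Of them 5 had a higher and 7 a lower mean, and *Mobp* was called lower (925 and 893 against 471 and 482). The 9 interneuron markers had 212 and 165 against 133 and 140. The 7 choroid plexus markers had 112 and 121 against 120 and 165, mostly *Enpp2* (108 and 120 against 117 and 164). Only 2 of the 7 reached the TPM minimum, and *Ttr* lay between 0 and 1.28 TPM. The alternatives are named below with their effect.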

Additional observations from a re-analysis of the deposited data

How the results depend on the processing

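Of 29 named genes, 25 kept their direction over the 13 to 16 alternatives that gave each a fold change. The exceptions were *Nme5*, at −0.11 when corrected for GC content and transcript length, with and without the replicate block, and between −0.019 and 0.34 with a library left out, *Etf1* (−0.092 to 0.12), *Sil1* (−0.30 to 0.015) and *Matr3* (−0.21 to 0.016), each with a library left out. The cause was not tested. Same-numbered mice share only a number, and their deviations correlated at 0.121 across genes and at 0.0268 after the correction. The replicate block called 1 flanking gene higher (*Snora74a*) and 1 lower (*Fam53c*), where 4.39% of all tested genes were called, and with the correction 0.349% were and none of the 52 flanking genes tested then. Over all genes the calls numbered 63, against 600 with the block, 1 without a filter, 38 with FPKM, 37 without trend and 21 to 188 with a library left out. All other settings with 4 libraries called none: a pseudocount of 0.1, FPKM, median-ratio scaling, no filter (67 flanking genes), a minimum mean TPM of 5, quantile normalization, the highest entry per gene, eBayes without trend, robust eBayes, and the adjusted p alone or with a log2 fold change over 1.2. With quantile normalization, and with the correction with or without the block, 1 gene was lower at an unadjusted p under 0.05.

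The median over all flanking genes was 0.012 with FPKM, −0.077 at a minimum mean TPM of 5, 0.024 with median-ratio scaling and 0.030 with quantile normalization. Up to 0.25 Mb it was −0.066 with FPKM, −0.17 without a filter, −0.059 with median-ratio scaling, −0.16 with quantile normalization and −0.11 with the correction. From 1 to 2 Mb these were 0.19, 0.16, 0.20, 0.18 and 0.15. Beyond 2 Mb it was −0.10 at a minimum mean TPM of 5 and 0.076 with quantile normalization. With a library left out, 0 to 2 genes were called higher and 0 lower. Between 21 and 23 were higher and 17 to 25 lower without overlap (27.6% to 32.0% and 40.4% to 51.8% of all tested genes), and 2 to 6 higher and 1 to 4 lower had an unadjusted p under 0.05 (2.94% to 7.98% and 4.41% to 17.5%). The medians then ran from −0.060 to 0.016 over all flanking genes, and by distance from −0.18 to −0.092, from −0.12 to 0.12, from 0.080 to 0.14 and from −0.048 to 0.079. Each bin held 7 to 23 tested genes, and *Snora74a* rests on few aligned bases.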
